A study of Mus musculus with 20 samples.

Results

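The 58 genes described here encode the machinery that takes a cell through mitosis and separates its chromosomes. The rule names them by their known role in division and uses no measured value, although the list was drawn up with earlier results of these data known. They are 58 of the 24411 gene symbols of the count table and were sorted into 11 roles from mitotic entry to chromosome structure. All 58 passed a filter on low counts applied over the 4 groups of mice, as did 14820 genes in all. The kidneys came from 20 mice at P125, with 1 library per mouse and 5 mice in each of 4 groups: male controls (MC), male mutants (MM), female controls (FC) and female mutants (FM). All mice were C57BL/6, carried floxed *Pkd2* alleles (Pkd2fl/fl) and were injected with doxycycline (DOX) at 50 mg per kg between P27 and P29. Mutants were Pkd2fl/fl; Pax8rtTA; TetOCre, in which DOX switches on Cre recombinase along the tubule wherever the Pax8 promoter drives rtTA. Controls lacked either Pax8rtTA or TetOCre, so that DOX could not switch on Cre in them. The mice came from 3 litters, and single mice are named by group and number (FM4 is a female mutant). The weight of 1 kidney per mouse was related to its body weight (KBW, in percent), and the question asked of these genes was how their transcript level differed with *Pkd2* deletion, with sex and with KBW.

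Entry into mitosis is driven by cyclin-dependent kinase 1 and its A- and B-type cyclins. Chromosomes are then condensed, captured at their kinetochores by spindle microtubules and held under the spindle checkpoint until the anaphase-promoting complex (APC/C) releases separase, after which the cytoplasm is cut by the cytokinesis machinery. Many of these genes are transcribed in late S phase, G2 and M, so that in a resting organ such as the adult kidney, where few cells divide, their transcripts are scarce, and cyst growth in polycystic kidney disease has long been tied to division of tubule cells.

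*Pkd2* itself was lower in all 5 male mutants (110 to 133 CPM, the count as a share of the scaled library size) than in the male controls (250 to 332), by 1.32 on the log2 scale (SE 0.083, edgeR adjusted p = 2.18e-05). In females it was 94.8 to 182 CPM in mutants and 193 to 306 in controls, a log2 difference of -0.80 (SE 0.18, adjusted p = 0.0276). Libraries held 11307741 to 19324073 counts. The library of FM4, the mutant with the lowest KBW (0.836%), stood apart: it had counts for 14850 genes against 16776 to 17724 in the other libraries, and 76 genes with a single count against 708 to 859. Of the members, 3 (*Melk*, *Cep55* and *Cdca5*) had 0 counts in FM4, and 0 counts there allow up to 0.259 CPM by counting error alone. The count of members called in females and the summary of the correlations with KBW are given with and without this mouse. Fold changes of single members include FM4 unless a left-out mouse is mentioned. These are whole kidneys, so more dividing cells and more of a transcript per dividing cell cannot be told apart, nor can the cell type that carries a transcript.

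Nearly all members rose in the mutants when all mice were compared. In males, 47 of the 57 members tested rose at an adjusted p under 0.01 and 1 fell (edgeR's quasi-likelihood test with Benjamini-Hochberg adjustment over all genes), where 5.25% of the 14010 genes tested rose and 3.2% fell. The median log2 fold change over the members was 1.86, or 3.64-fold, against -0.0020 over all genes tested. In females, 8 of 57 rose and 0 fell, where 0.457% of 14439 genes rose and 0.18% fell, and the median log2 fold change was 1.59, or 3.01-fold. The female count is set by the threshold: 51 members had an unadjusted p under 0.05, where 2979 of 14439 genes did. At an adjusted p under 0.05, a threshold added after seeing the data, 39 rose, where 3.88% of all genes did. The female count at an adjusted p under 0.01 also turned on single mice. It was 42 without FM4, 3 without FM3, 2 without FC5, 1 without FM2 and 0 without any one of FC1, FC2, FC3, FC4, FM1 and FM5. In males the count was 17 without MC4 and 26 without MC3. Over all 20 mice, with sex and litter in the model, 51 of 57 members rose and 1 fell (median log2 fold change 1.69, or 3.23-fold), where 10.0% of 14191 genes rose and 5.86% fell, and the count of members called stayed between 46 and 54 when each mouse was left out in turn.

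The levels of mutants and controls lay apart for most members. Every male mutant lay above every male control in CPM for 46 of the 58 members, as was so for 8.68% of 14820 genes. Every female mutant lay above every female control for 35 members (3.71% of all genes), and every one of the 10 mutants lay above every one of the 10 controls for 22 (0.978%). Summed over the 58 members, the level was 247 to 279 CPM in male controls, 283 to 329 in female controls, 385 to 792 in male mutants and 402 to 698 in female mutants. The mutants were thus spread more widely than the controls, and no mutant reached down to a control. The median over members of the log2 level, centred on each gene's mean, was -0.75 ± 0.15 (SD, n = 5) in male controls, 0.96 ± 0.61 in male mutants, -0.70 ± 0.22 in female controls and 0.63 ± 0.56 in female mutants. Within litters A, B and C the mutants exceeded the controls on that measure by 1.77, 1.86 and 1.10 in males and by 1.48, 1.38 and 1.05 in females, with 1 mouse a side in litter C of both sexes and in litter A of females, and with 1 control in litter B of males.

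**Figure D1:**
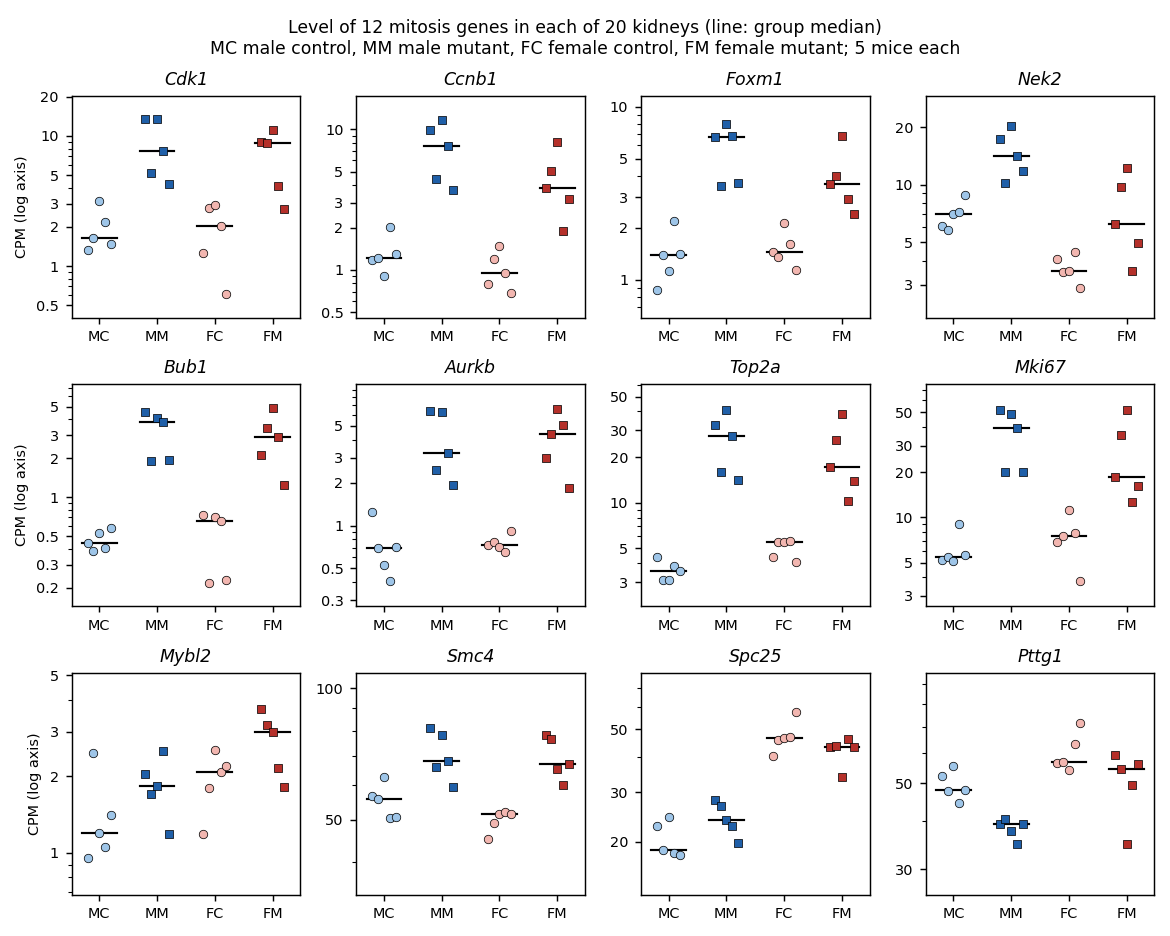
Level of 12 members in each kidney, in CPM on a log axis, for the 4 groups of 5 mice. Each point is a mouse and each black line a group median. In the upper 2 rows the mutants lie above the controls of their sex, with overlap in females for *Cdk1* and *Nek2* only, while *Mybl2*, *Spc25* and *Pttg1* do not follow.

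Genes of this kind often carry 2 short promoter motifs, the cell cycle genes homology region (CHR, TTTGAA or TTCGAA) and the CCAAT box, so the promoters were read from the RefSeq-based table for GRCm38.p6 (the build also called mm10), from 250 bases before to 50 after each start, on both strands. Of the 58 members, 47 had an entry. A CHR was present for 34 of them (72.3%), against 21.7% of the 27025 genes in the table. A CCAAT was present for 33 (70.2%) against 41.1%, and both for 29 (61.7%) against 8.61%. A gene counted as holding a motif if any of its windows did. A match is a description of letters, and no match says only that they are not in this window. The stretches below, from 170 bases before to 30 after the start and written 5′ to 3′, are those of 5 mitotic regulators that rose over all mice and, chosen after their values were seen, of *Pttg1* and *Spc25*, which did not rise. Capitals mark a CHR or a CCAAT on either strand, the latter read as ATTGG when reversed.
Cdk1, chr10:69352883-69353082, minus strand: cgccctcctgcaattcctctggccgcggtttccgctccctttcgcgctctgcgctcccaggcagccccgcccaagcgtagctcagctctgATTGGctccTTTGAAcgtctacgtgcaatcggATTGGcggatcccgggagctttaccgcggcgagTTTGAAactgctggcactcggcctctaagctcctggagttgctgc
Ccnb1, chr13:100786457-100786656, minus strand: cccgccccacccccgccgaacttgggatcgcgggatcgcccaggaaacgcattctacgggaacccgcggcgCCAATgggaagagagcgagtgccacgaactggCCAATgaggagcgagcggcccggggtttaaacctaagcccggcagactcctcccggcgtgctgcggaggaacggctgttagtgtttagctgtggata
Ccnb2, chr9:70421525-70421724, minus strand: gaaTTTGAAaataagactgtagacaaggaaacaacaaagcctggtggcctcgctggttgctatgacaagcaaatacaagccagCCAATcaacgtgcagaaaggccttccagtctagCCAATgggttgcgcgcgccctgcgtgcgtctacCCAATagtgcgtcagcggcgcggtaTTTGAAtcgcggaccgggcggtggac
Cdc20, chr4:118437314-118437513, minus strand: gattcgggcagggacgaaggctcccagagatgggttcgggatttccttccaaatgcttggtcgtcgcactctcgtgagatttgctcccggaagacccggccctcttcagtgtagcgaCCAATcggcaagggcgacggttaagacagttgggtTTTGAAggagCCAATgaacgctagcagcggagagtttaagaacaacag
Plk1, chr7:122159265-122159464, plus strand: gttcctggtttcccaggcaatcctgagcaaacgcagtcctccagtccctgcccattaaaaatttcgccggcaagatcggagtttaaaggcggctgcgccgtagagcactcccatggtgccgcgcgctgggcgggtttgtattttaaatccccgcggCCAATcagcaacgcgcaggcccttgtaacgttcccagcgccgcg
Spc25, chr2:69206184-69206383, minus strand: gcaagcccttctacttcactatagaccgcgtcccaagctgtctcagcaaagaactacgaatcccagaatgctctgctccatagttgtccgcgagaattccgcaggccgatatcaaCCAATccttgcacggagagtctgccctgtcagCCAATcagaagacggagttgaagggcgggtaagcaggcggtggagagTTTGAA
Pttg1, chr11:43425952-43426151, minus strand: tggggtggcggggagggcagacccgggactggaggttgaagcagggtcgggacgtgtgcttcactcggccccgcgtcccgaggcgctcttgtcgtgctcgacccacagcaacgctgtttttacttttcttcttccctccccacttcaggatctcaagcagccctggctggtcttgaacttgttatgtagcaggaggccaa
*Cdk1*, *Ccnb2* and *Cdc20* carry both motifs in these stretches. *Ccnb1* has 2 CCAAT and no CHR in the window, and the CHR of *Plk1* starts at position 31, just past the bases shown. *Spc25* carries both motifs although its level did not follow the others. *Pttg1* carries neither in its window, but that window lies wholly inside the gene as GENCODE M21 places it, with its 5′ end at 43426251. The bases before that start were not read, so the absence says nothing about them. The other members without a CHR in the window were *Birc5*, *Cenpe*, *Cenpk*, *Kif18a*, *Mad2l1*, *Melk*, *Mybl2*, *Ncaph*, *Nek2*, *Nuf2* and *Nusap1*.

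Of the 6 cyclin, *Cdk1* and entry genes, 5 were tested and all 5 rose over all mice, by 1.50 to 2.24 on the log2 scale. *Cdk1*, the kinase that starts mitosis, was at 1.32, 1.48, 1.65, 2.19 and 3.16 CPM in male controls and at 4.23, 5.20, 7.66, 13.4 and 13.5 in male mutants. In females it was at 0.608, 1.25, 2.03, 2.78 and 2.95 CPM in controls and at 2.76, 4.14, 8.81, 8.94 and 11.2 in mutants. The male groups did not overlap, while the lowest female mutant, FM5, lay just under the 2 highest female controls. *Cdk1* rose by 2.09 on the log2 scale in males (SE 0.33, adjusted p = 0.00217) and by 2.02 over all mice (SE 0.24, adjusted p = 1.43e-05). Its log2 change in females, 1.98 (SE 0.33), had an adjusted p of 0.0111, and it was called there in 1 of the 10 fits that left out a mouse. *Ccnb1*, a B-type cyclin that activates *Cdk1*, was at 0.902 to 2.03 CPM in male controls against 3.73 to 11.6 in male mutants, and at 0.684 to 1.47 in female controls against 1.90 to 8.15 in female mutants. It rose by 2.24 over all mice (SE 0.24, adjusted p = 6.15e-06), and the groups of each sex did not overlap. *Ccna2* and *Ccnb2*, the partner cyclins, rose in each sex taken alone. Their female calls were not steady, since without FC1, for example, no member was called in females. *Cdc25c*, a phosphatase that activates *Cdk1*, had too few counts to pass the filter of these genotype comparisons, with 1 to 5 in each control library and 3 to 29 in each mutant library.

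*Foxm1*, a factor that drives transcription of G2 and M genes, rose by 1.61 over all mice (SE 0.20, adjusted p = 1.74e-05), from 0.878 to 2.19 CPM in male controls to 3.49 to 7.99 in male mutants and from 1.14 to 2.12 in female controls to 2.41 to 6.79 in female mutants. *Mybl2*, a partner in activating such genes, did not pass the test in any of these comparisons. Its groups overlapped in both sexes, at 0.952 to 2.48 CPM in male controls, 1.19 to 2.51 in male mutants, 1.19 to 2.54 in female controls and 1.82 to 3.69 in female mutants, with a log2 change of 0.43 over all mice (SE 0.22, adjusted p = 0.155). All 5 of the other mitotic kinases rose over all mice, by 1.00 (*Nek2*, a centrosome kinase) to 2.50 (*Melk*). *Plk1*, which acts at centrosomes and kinetochores, rose by 1.69 and *Aurka*, the spindle pole kinase, by 1.27. *Melk* went from 0.129 to 0.659 CPM in male controls to 0.847 to 5.71 in male mutants, and in females from 0.436 to 0.760 to a range of 1.12 to 4.56 in the mutants other than FM4, which had 0 counts.

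All 4 checkpoint genes rose over all mice, by 0.90 (*Mad2l1*) to 2.59 (*Bub1*). *Bub1*, a kinetochore kinase of the checkpoint, had the largest change of any member over all mice. It was at 0.381, 0.406, 0.439, 0.526 and 0.579 CPM in male controls and at 1.91, 1.92, 3.83, 4.06 and 4.52 in male mutants. In females it was at 0.218, 0.228, 0.655, 0.708 and 0.726 in controls and at 1.23, 2.12, 2.93, 3.42 and 4.91 in mutants. No mutant overlapped any control (SE 0.26, adjusted p = 2.86e-06), though the control values rest on 3 to 12 counts a library. Of the anaphase genes, *Cdc20*, the activator of the APC/C, rose by 1.69, the ubiquitin-conjugating enzyme *Ube2c* by 1.60 and *Espl1*, which encodes separase, by 1.84.

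*Pttg1* encodes securin, the inhibitor that holds separase until anaphase, and it was the one member that fell. It was at 44.5, 47.9, 48.1, 52.1 and 55.3 CPM in male controls and at 34.8, 37.6, 39.2, 39.4 and 40.5 in male mutants. In females it was at 54.2, 56.5, 56.7, 63.3 and 71.6 in controls and at 34.8, 49.5, 54.5, 56.1 and 59.1 in mutants. Every male mutant lay below every male control, whereas the female groups overlapped. The log2 change was -0.34 in males (SE 0.066, adjusted p = 0.00525), -0.23 in females (SE 0.13, adjusted p = 0.333) and -0.29 over all mice (SE 0.074, adjusted p = 0.00679). The size was steady but the call was not: with 1 mouse left out, the change over all mice lay between -0.33 and -0.25 and passed the threshold in 9 of 20 fits, and in males it lay between -0.37 and -0.32 and passed in 3 of 10.

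All 4 subunits of the chromosomal passenger complex rose over all mice. *Aurkb*, its kinase, rose by 2.42 (SE 0.27, adjusted p = 8.45e-06), *Birc5*, or survivin, by 1.91, *Cdca8*, or borealin, by 1.38 and the scaffold *Incenp* by 0.81. *Aurkb* was at 0.406, 0.526, 0.699, 0.708 and 1.24 CPM in male controls and at 1.92, 2.46, 3.24, 6.23 and 6.33 in male mutants, and at 0.655 to 0.912 in female controls and 1.82 to 6.58 in female mutants, so that no mutant overlapped a control. Of the 8 centromere and kinetochore genes, 6 rose, among them *Cenpf* by 2.33, the kinetochore motor *Cenpe* by 1.36 and the centromeric histone gene *Cenpa* by 1.16. *Cenpk*, of the inner kinetochore, had a log2 change of 0.98 that missed the threshold (SE 0.27, adjusted p = 0.0123).

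The Ndc80 complex, which binds the kinetochore to microtubules, has its 4 subunits among the members, and they did not move alike. *Nuf2* rose by 2.37, *Ndc80* by 1.80 and *Spc24* by 0.77 over all mice, while the log2 change of *Spc25* was 0.053 (SE 0.087, adjusted p = 0.703). *Spc25* was at 17.9, 18.3, 18.8, 22.7 and 24.6 CPM in male controls and at 19.8, 22.9, 23.9, 26.7 and 28.0 in male mutants. In females it was at 40.2, 45.9, 46.7, 46.8 and 57.4 in controls and at 34.0, 43.3, 43.3, 43.5 and 46.3 in mutants. Genotypes overlapped in both sexes, and the sexes did not overlap in either genotype. Per kilobase of exon, *Spc25* stood at 6.42 CPM in male controls and 14.9 in female controls, against 0.121 and 0.147 for *Nuf2*, 0.149 and 0.135 for *Ndc80* and 1.42 and 1.54 for *Spc24*.

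Of the 8 mitotic kinesins, 6 rose over all mice, from *Kif20a* (0.90) through *Kif11*, the motor that pushes spindle poles apart (1.87), to the chromosome motor *Kif4* (2.15). *Kif23*, a cytokinesis motor, and *Kif18a*, which limits microtubule length, did not pass, with log2 changes of 0.49 (SE 0.20, adjusted p = 0.0731) and 0.64 (SE 0.18, adjusted p = 0.0125). All 4 spindle assembly genes rose, led by *Tpx2*, the activator of Aurora A, at 2.40, with *Dlgap5* at 2.33, *Hmmr* at 1.86 and *Nusap1* at 1.17. All 5 cytokinesis genes rose: *Cep55*, which acts at the midbody in the last cut, by 2.44, the ring protein *Anln* by 2.18, the midzone protein *Prc1* by 2.06, and *Racgap1* and *Ect2*, which switch on the GTPase RhoA, by 1.59 and 0.67. The call of *Ect2* held in 11 of the 20 fits that left out a mouse, with a log2 change between 0.52 and 0.77. *Cep55* was at 0.293 to 0.451 CPM in male controls against 1.41 to 3.17 in male mutants, and at most at 0.818 in female controls, with 0 counts in FC5, against 1.65 to 4.10 in the female mutants other than FM4. *Tpx2* and *Prc1*, with *Mki67* and *Pbk*, were the members with the smallest p among those called in males and not in females, at log2 changes of 2.95, 2.35, 2.44 and 2.38 in males and 1.94, 1.82, 1.88 and 1.61 in females. That difference in calls turned on which mouse was left out: in females each of the 4 was called in 1 of the 10 fits that left out a mouse. The edgeR adjusted p in those fits was 0.000613, 0.00115, 0.000627 and 0.00183 in the same order. Over all members, the female count was highest without FM4, at 42.

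All 8 genes of chromosome condensation and structure rose over all mice. *Top2a*, the topoisomerase that untangles sister chromatids, rose by 2.37 (SE 0.22, adjusted p = 1.91e-06), from 3.08 to 4.39 CPM in male controls to 14.2 to 40.9 in male mutants and from 4.10 to 5.60 in female controls to 10.4 to 38.2 in female mutants. *Mki67*, the proliferation marker Ki-67 that coats mitotic chromosomes, was at 5.11, 5.20, 5.47, 5.66 and 9.09 CPM in male controls and at 20.0, 20.1, 39.4, 49.0 and 51.7 in male mutants. In females it was at 3.80, 6.86, 7.53, 7.92 and 11.3 in controls and at 12.7, 16.0, 18.6, 35.3 and 51.9 in mutants. No mutant overlapped a control, and *Mki67* rose by 2.14 over all mice (SE 0.23, adjusted p = 5.95e-06). The condensin I subunits *Ncapg* and *Ncaph* rose by 1.87 and 1.72, and the third, *Ncapd2*, by 0.57. *Smc2* and *Smc4*, the core pair shared by both condensins, rose by 0.95 and 0.43. *Smc4* was at 50.4, 50.8, 55.9, 56.7 and 62.7 CPM in male controls and at 59.6, 66.2, 68.4, 78.2 and 81.2 in male mutants, and at 45.1 to 52.1 in female controls and 60.0 to 78.4 in female mutants, with MC3 the only control above the lowest mutant of its sex.

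**Figure D2:**
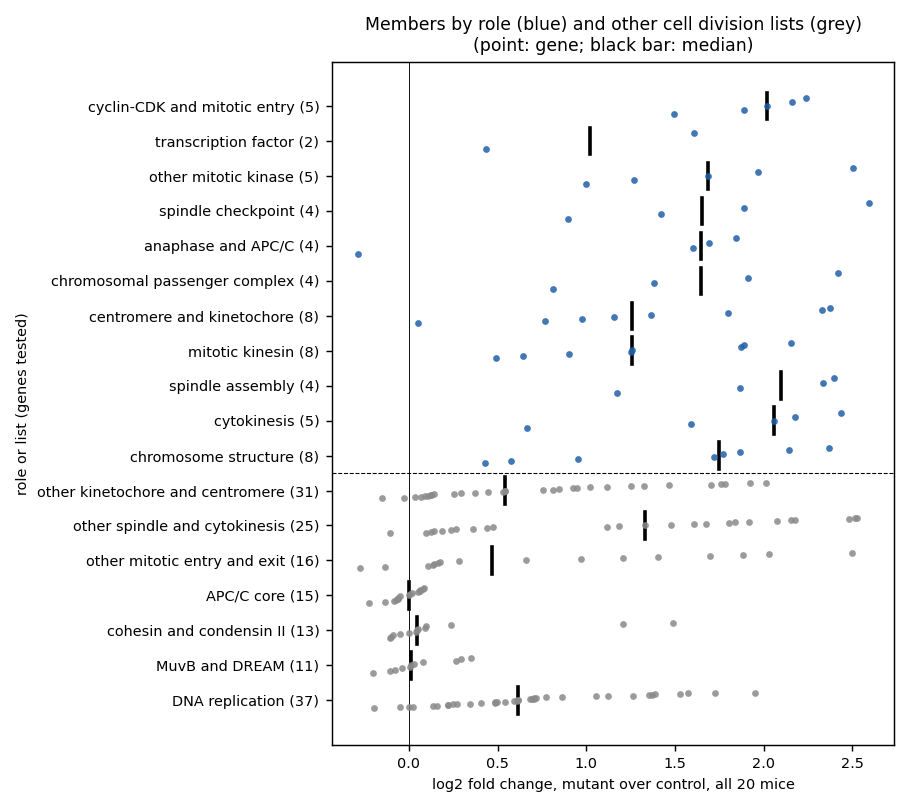
Log2 fold change of mutants over controls across all 20 mice for the 57 members tested, by role (blue), and for genes of 7 other cell division lists (grey). Each point is a gene and each black bar a median, and the numbers beside the names count the genes tested. The role medians lie between 1.02 and 2.10, while the APC/C core, the cohesin and condensin II genes and the MuvB and DREAM genes sit near 0.

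Among the members that passed the filter on low counts, the size of the rise went with how little of a transcript control kidneys held. Per kilobase of exon, *Pttg1* (27.5 CPM), *Spc25* (10.6) and *Smc4* (10.1) had the highest control levels of the 57 members, the next being *Smc2* at 1.83, and these 3 had the smallest changes over all mice. Across the 57 members, Spearman's rho between control level per kilobase and log2 fold change was -0.64, and -0.57 without those 3. This is a description across genes that share the same libraries, and the control level enters both axes. The filter also shapes it. In the controls alone 51 of the 58 members passed, and *Bub1*, *Melk* and *Cep55* were not among them. Members that low in controls could enter only through their level in mutants, so part of the relation was fixed by the filter.

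**Figure D3:**
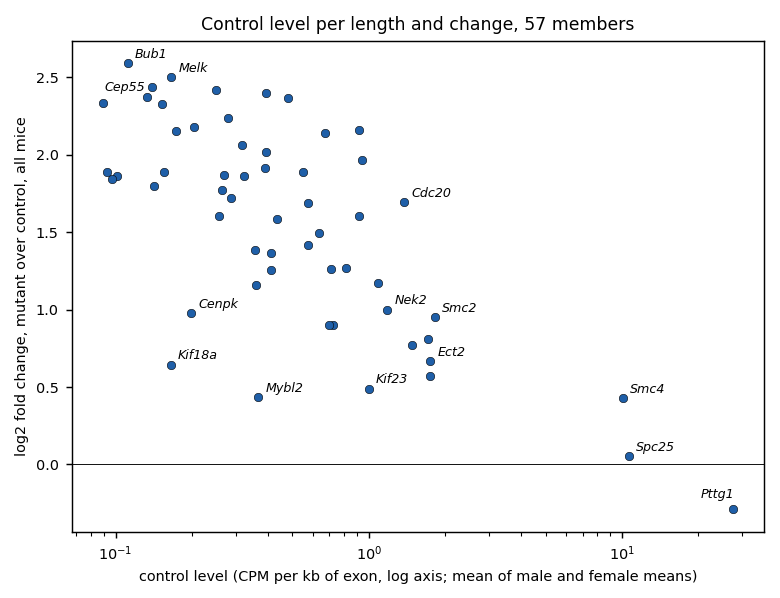
Control level (CPM per kilobase of exon, log axis, the mean of the male and female control means) against the log2 fold change of mutants over controls across all 20 mice, 1 point per member. *Bub1*, *Melk* and *Cep55*, with the largest changes, lie at the upper left, and *Smc4*, *Spc25* and *Pttg1* lie alone at the lower right.

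Other genes of the same processes were taken from 7 lists. Of 31 further kinetochore and centromere genes tested over all mice, 15 rose and 0 fell (median log2 fold change 0.54), with *Cenpm* at 2.01 and the cohesin protector *Sgol1* at 1.92. Of 25 further spindle and cytokinesis genes, 15 rose and 0 fell (median 1.33), among them the kinesin *Kif14* at 2.53, *Iqgap3* at 2.51 and the spindle pole gene *Aspm* at 2.18. Of 16 further entry and exit genes, 8 rose and 0 fell (median 0.47), with *Cdkn3* at 2.50 and *Ccnf* at 1.88, while *Wee1*, the kinase that holds *Cdk1* inactive, was at 0.14 (SE 0.095, adjusted p = 0.299). The core subunits of the APC/C did not join them. None of the 15 passed the test in edgeR, and their changes lay between -0.22 and 0.087. None had an unadjusted p under 0.05, where 5346 of 14191 genes did. Of 13 cohesin and condensin II genes, 3 rose (*Esco2*, *Ncapg2* and *Rad21*, at 1.49, 1.21 and 0.23), and of 11 genes of the MuvB and DREAM complexes, which bind the CHR and repress or activate such promoters, 1 rose (*Tfdp1*, at 0.35). Against the 10.0% of all genes that rose, the spindle, kinetochore, entry, and cohesin and condensin II lists held larger shares, the MuvB and DREAM list about the same share, and the APC/C core list a smaller one.

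Several members share sequence or position with other genes, which limits single values. By the GENCODE M21 annotation of GRCm38, 33 members overlap another annotated gene, and for 18 some exon bases are shared. The shared part exceeds 10% of exon length for 7: *Kif20a* (29.3%), *Ube2c* (22.8%), *Kif4* (15.1%), *Ncapg* (13.4%), *Cdc25c* (12.7%), *Ccna2* (12.5%) and *Prc1* (11.1%), all with a gene on the opposite strand. Whether counting used strand is not given in the sources used here, so reads of such partners cannot be told apart. *Kifc1*, whose log2 change was 1.26, has a near-identical copy in the mouse genome and its count is uncertain.

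Markers of other cells moved beside these genes. Over all mice 9 of 9 macrophage markers, 5 of 8 fibroblast and myofibroblast markers and 7 of 8 tubule injury markers rose, 6 of 7 loop and distal tubule markers and 3 of 8 collecting duct markers fell, and 0 of 9 lymphocyte (7 tested), 6 endothelial and 8 proximal tubule markers passed the test. Of 9 erythroid markers, 4 were tested and 2 fell, and the 4 adult haemoglobin genes had 0 counts in every library. Of all genes tested over all mice, 10.0% rose and 5.86% fell. In females alone 0 of 9 macrophage, 0 of 8 fibroblast and myofibroblast and 1 of 8 injury markers rose, where 0.457% of all genes did. In males 8, 4 and 7 rose in the same order, where 5.25% of all genes did. The summed macrophage level was 115 to 129 CPM in male controls, 152 to 193 in female controls, 176 to 454 in male mutants and 160 to 622 in female mutants. The summed fibroblast level was 234 to 304, 329 to 499, 411 to 1188 and 484 to 1581 CPM in the same order, and the summed injury level 1076 to 1364, 2392 to 2859, 2053 to 10416 and 3080 to 11338. The part of these cells in the rise of the mitosis genes was not tested.

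The estimated change was smaller in females than in males for most members, but the difference between the sexes did not pass the test for any. In the sex-by-genotype term, 48 of 58 members had a positive value, meaning a larger change in males, with a median of 0.26 on the log2 scale. No member was called by edgeR or by DESeq2's Wald test, and 0.0% of 14820 genes were called by edgeR in either direction. An unadjusted p under 0.05 in edgeR was reached by 3 of the 58 members and by 618 of the 14820 genes, a similar share. The smallest p values were those of *Ect2* (0.97, SE 0.25, unadjusted p = 0.00119, adjusted p = 0.551) and *Spc25* (0.45, SE 0.14, unadjusted p = 0.00542, adjusted p = 0.898), followed by *Ube2c* (1.18, SE 0.41, unadjusted p = 0.0111).

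**Figure D4:**
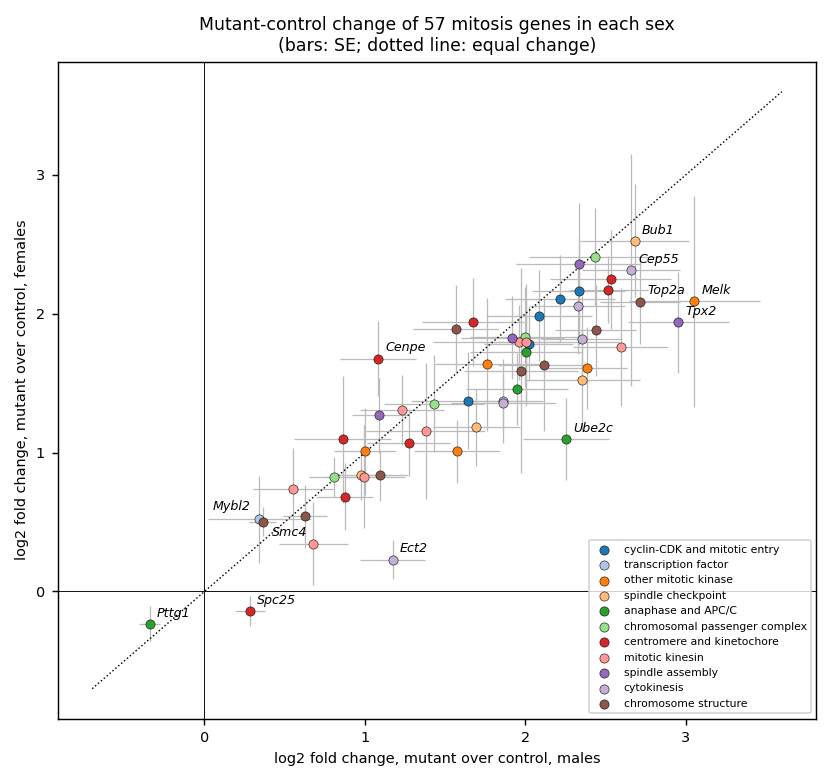
Log2 fold change of mutants over controls in males (x) and in females (y) for the 57 members tested in both, coloured by role, with bars of 1 SE. The dotted line marks equal change: most members lie on its male side, with *Ube2c*, *Tpx2*, *Melk* and *Ect2* the farthest below it, *Cenpe* lies above it, and *Pttg1* is negative in both sexes.

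Those 3 genes already differed between the sexes in controls. The same control libraries enter the sex-by-genotype term by which they were picked, so this is not a separate finding. Comparing male with female controls, 3 of 51 members tested were higher in males and 3 were lower, where 8.75% and 9.02% of 14123 genes were, so members were called no more often than genes at large. Higher in males were *Cenpe* by 1.35 (SE 0.21, adjusted p = 0.000514), *Nek2* by 1.01 (SE 0.18, adjusted p = 0.00135) and *Nusap1* by 0.96 (SE 0.15, adjusted p = 0.000566). Lower in males were *Ube2c*, by -1.29 (SE 0.26, adjusted p = 0.00281), *Spc25*, by -1.21 (SE 0.13, adjusted p = 2.57e-05), and *Ect2*, by -0.94 (SE 0.15, adjusted p = 0.000729). *Ect2* was at 4.98, 5.66, 6.80, 6.99 and 7.55 CPM in male controls and at 9.27, 11.3, 12.7, 12.9 and 16.2 in female controls, so the sexes did not overlap. Without FC1 the difference of *Ect2* was -0.66 and not called, without MC4 neither *Nek2* (1.05) nor *Ube2c* (-1.42) was called, and without FC1, MC5 or FC5 *Ube2c* was not called (-1.35, -1.13 and -1.13). In mutants *Ect2* was at 10.5 to 21.8 CPM in males and 9.64 to 18.0 in females, and the sexes overlapped. *Ube2c* followed the same course, with 1.14 to 1.54 CPM in male controls, 2.01 to 4.56 in female controls, 3.44 to 10.1 in male mutants and 3.71 to 9.23 in female mutants.

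Between mutant males and mutant females, 1 of 58 members was lower in males and 0 were higher, where 1.84% and 3.59% of 14416 genes were. The one was *Spc25*, at -0.83 (SE 0.12, adjusted p = 0.00138), which was -0.75 and not called without FM5 or without MM5. *Nek2*, at 10.2 to 20.4 CPM in male mutants and 3.54 to 12.2 in female mutants, differed by 1.10 (SE 0.30, adjusted p = 0.0338) and did not pass, nor did *Cenpe*, *Nusap1*, *Ect2* or *Ube2c*. The sexes also differed in KBW, which was 1.22% to 2.15% in male mutants and 0.836% to 1.46% in female mutants, with the 2 ranges overlapping.

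Among the 10 mutants, the level of most members ran with KBW. Pearson's r between log2 CPM and KBW was over 0.5 for 47 of 58 members, against 12.8% of 14820 genes, and under -0.5 for 2, against 16.5%. Those 2 were *Pttg1* and *Spc25*, whose r was -0.22 and -0.21 with each sex centred on its own mean. The median r was 0.63 over the members and 0.023 over all genes. No single relation passed the adjustment, and the smallest adjusted p was 0.104. An unadjusted permutation p under 0.05 for r was reached by 29 members, *Spc25* with its negative r among them, and by 2238 of the 14820 genes. Without MM1 and FM4, the 2 mice farthest from the median KBW, the median r was 0.52 and 31 members lay over 0.5. Without FM4 alone the median was 0.58 and 38 lay over 0.5. With each sex centred on its own mean the median was 0.67 and 53 lay over 0.5, and with 5 mutants a sex no separate r was taken within a sex or litter.

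The 3 members with the highest r were *Nek2*, *Cdca3*, which promotes mitotic entry, and *Cenpe*. For *Nek2*, r was 0.87 (permutation p = 0.00115, adjusted p = 0.104) and Spearman's rho 0.90 (permutation p = 0.00074, adjusted p = 0.181), with r at 0.82 without MM1 and FM4. *Cdca3* had an r of 0.86 (permutation p = 0.00166, adjusted p = 0.111) and a rho of 0.85 (permutation p = 0.00311, adjusted p = 0.211), with r at 0.73 without those mice. *Cenpe* had an r of 0.85 (permutation p = 0.00208, adjusted p = 0.115) and a rho of 0.85 (permutation p = 0.00318, adjusted p = 0.215), with r at 0.74 without them. *Cdk1* had an r of 0.69 (permutation p = 0.0279, adjusted p = 0.262) and a rho of 0.73 (permutation p = 0.0201, adjusted p = 0.306), and an r of 0.54 without them. At the other end were *Mybl2*, with r at -0.18 (permutation p = 0.613, adjusted p = 0.837) and rho at -0.091 (permutation p = 0.81, adjusted p = 0.945), and *Pttg1*, with r at -0.58 (permutation p = 0.0777, adjusted p = 0.392) and rho at -0.59 (permutation p = 0.0814, adjusted p = 0.461). Without MM1 and FM4 their r was -0.24 and -0.65. With each sex centred on its own mean, the r of *Mybl2* turned to 0.41 and that of *Pttg1* was -0.22, so neither negative value held at its size within the sexes, while *Nek2*, *Cdca3*, *Cenpe* and *Cdk1* were at 0.74, 0.85, 0.80 and 0.76. *Spc25* had the lowest pooled r of the members, at -0.69 (permutation p = 0.0294, adjusted p = 0.269). It separated the mutants by sex, however, and with the sexes centred its r was -0.21, so the pooled value is not read as a relation with KBW.

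**Figure D5:**
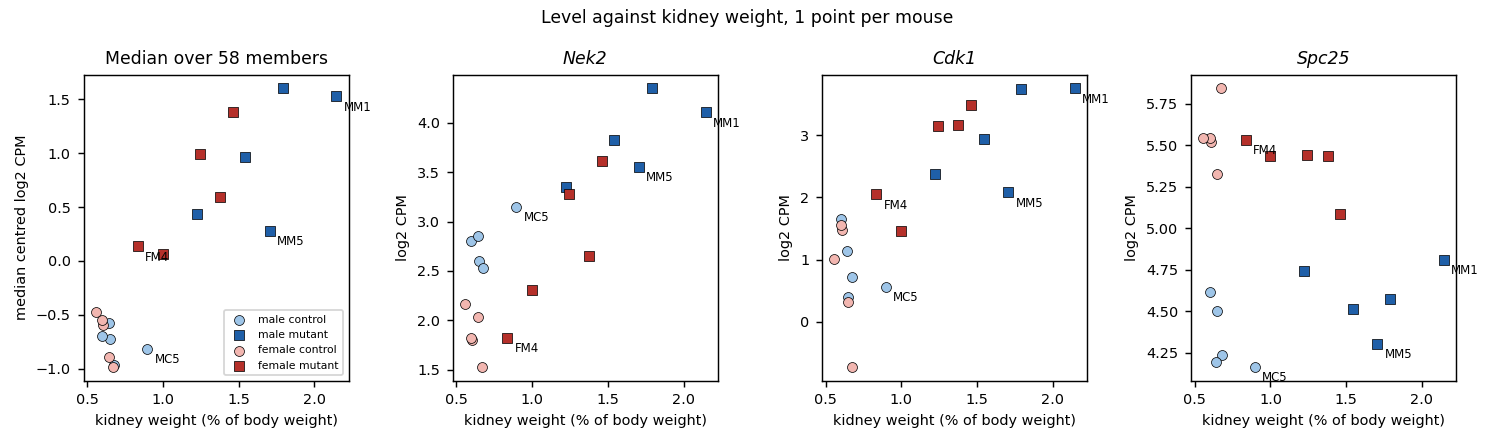
Level against KBW (kidney weight as percent of body weight), 1 point per mouse, for the median over 58 members (centred log2 CPM) and for *Nek2*, *Cdk1* and *Spc25* (log2 CPM). Mutants with larger kidneys lie higher in the first 3 panels, MM5 lies low for its KBW of 1.71%, and in the last panel the sexes form separate groups.

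Not every mutant followed that order. MM5 had a KBW of 1.71% and a median member level of 0.28, the lowest of the male mutants, whereas MM4, with 1.54%, was at 0.97, and FM3, with 1.46%, was at 1.38. FM5 was the lowest of all mutants at 0.066 and FM4 followed at 0.14, both above the highest control, FC4, at -0.47. In a count model with KBW as its only term, the slope was positive for 55 of 58 members in mutants, with a median of 1.08 on the log2 scale per percentage point of KBW. No member passed the test in edgeR (0.0% of 14865 genes did), and DESeq2's Wald test called 4 (*Nek2*, *Cdca3*, *Cenpe* and *Ccnb1*). An unadjusted p under 0.05 in edgeR was reached by 32 of the 58 members and by 2204 of the 14865 genes. In controls, whose KBW spanned only 0.555% to 0.896%, the slope was positive for 15 of 57 members. No control slope of a member was called by edgeR (0.0% of 14760 genes were) or by DESeq2. An unadjusted p under 0.05 in edgeR was reached by 5 of the 57 members and by 1260 of the 14760 genes, a similar share.

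The members varied together among mutants and much less so among controls. In a principal component analysis of their centred log2 levels, the first component held 83.3% of the variance over the 20 mice and 75.1% over the 10 mutants, with *Pttg1* and *Spc25* opposite to the other 56 in both. Over the 10 controls it held 24.6%, and 35 members loaded in one direction and the rest in the other. Control libraries gave 1 to 9 counts for 2 to 13 members each, and 0 counts for a single member in MC3 and in FC5, so counting error takes a larger part of the spread there.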

How the data were processed

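Kidney RNA of 20 mice was sequenced, 1 library per mouse. Per the labels, whose processing notes name fastp 0.23.2, STAR 2.7.10b and the build mm10, the authors deposited raw counts per gene symbol. The counting tool, annotation and strandedness are not given in the sources used here. Groups, litters and weights came from the labels, with mice numbered in accession order. Each mouse is a separate animal, and KBW is the labelled weight of 1 kidney over body weight.

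Counts were analysed here in R 4.3.3 with edgeR 4.0.16 (filterByExpr, TMM, quasi-likelihood test, Benjamini-Hochberg adjustment over all genes tested, called at an adjusted p under 0.01). Genotypes were compared within sex and sexes within genotype with litter as a covariate, and the fit over all mice had a term for each litter of each sex. CPM used TMM library sizes, and log2 CPM a prior count of 2. Correlations had two-sided permutation tests with 100000 resamples over 14820 genes. DESeq2 1.42.0, other filters, no litter term, 1 fit for all mice, other covariates and leaving out each mouse were alternatives. The fits were tested on simulated data.

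The members and lists were chosen with earlier results of these data known. Members given in full were *Cdk1*, *Mki67*, *Top2a*, *Ccnb1*, *Foxm1* and *Aurkb*, those with the 3 largest and 3 smallest changes, those not called, those with the 3 highest and 3 lowest r with KBW, up to 4 called in 1 sex, and those with the 2 smallest p for sex. *Spc25*'s promoter, and *Ube2c* and *Nusap1* in the comparison of sexes, were added after their values were seen. Depth was 11307741 to 19324073 counts a library, and the median SE of a member's log2 fold change was 0.28 in males, 0.31 in females and 0.22 over all mice. The p-values measure the spread between these mice, and floors cover counting error only.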

Additional observations from a re-analysis of the deposited data

Results flagged for a closer look

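Each of 100 groups of 5 mice (23 named members, the median member level and KBW, in 4 groups) was checked for a mouse far from the others by Dixon's ratio against 0.71, and 3 stood out, where chance flags about 1 in 20. In male controls, MC4 had *Mki67* at 9.09 CPM against 5.11 to 5.66 in the other 4. In female mutants, FM3 had *Spc25* at 34.0 CPM against 43.3 to 46.3. In male controls, MC5 had a KBW of 0.896% against 0.599% to 0.678%. FM3 also had the lowest *Pttg1* of the female mutants and the highest *Mki67*, at 34.8 and 51.9 CPM. No sex-by-genotype term passed the test for a member.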

How the results depend on the processing

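Of the 23 named members and those called between the sexes, none that was called changed its direction under any alternative. The direction of the other called members was not checked singly. The counts of members called kept within 1.5 times of those reported, with these exceptions. Among females 8 members were called, against 40 with DESeq2's Wald test, 20 with no filter on low counts, 36 with all 20 mice in 1 fit and 39 at an adjusted p under 0.05 (a threshold chosen after seeing the data). In males *Pttg1* (-0.33), *Cep55* (2.61) and *Nek2* (0.99) were not called with all 20 mice in 1 fit. *Cenpe* (1.09) was not called in males when at least 10 counts in every mouse were required. Over all mice 52 were called, against 34 of the 37 members that had at least 10 counts in every mouse. Between mutant males and females 1 was called, against 2 with DESeq2's Wald test, 4 with all 20 mice in 1 fit and 3 at an adjusted p under 0.05. For the KBW slope in mutants 0 were called, against 4 with DESeq2's Wald test. Apart from the stricter count filter, where fewer members were tested, the cause was not tested. With each mouse left out in turn, the count was 17 to 52 in males, 0 to 42 in females, 46 to 54 over all mice, 0 for the sex-by-genotype term, 4 to 6 between control sexes, 0 to 2 between mutant sexes and 0 for the slope. The members with r over 0.5 numbered 33 to 55, and the mutant-control difference in median level was 1.55 to 1.88 in males and 1.14 to 1.47 in females. No paired analysis was possible because the labels carry no replicate numbers and the mice differ between groups, so litter was used as a covariate. Depth limits the low members most: *Melk*, *Cep55*, *Bub1*, *Cdca5* and *Cdc25c* rest on 0 to 15 counts in each control library.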

Other observations

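Genes of DNA replication, the step before mitosis, moved in the same direction by less. Of 37 tested over all mice, 22 rose and 0 fell, with a median log2 fold change of 0.62, from *Uhrf1*, which maintains DNA methylation at forks, at 1.95 (SE 0.24, adjusted p = 1.72e-05) and cyclin E1 (*Ccne1*) at 1.73 (SE 0.29, adjusted p = 0.000266) through the helicase subunits *Mcm3* at 1.53 and *Mcm2* at 0.70 to a value of 0.35 for the sliding clamp *Pcna* (SE 0.10, adjusted p = 0.0194), which did not pass. In males 16 of 37 rose and in females 1. Of all genes tested, 10.0% rose over all mice, 5.25% in males and 0.457% in females. The median centred log2 level of the list was -0.26 ± 0.049 (SD, n = 5) in male controls, 0.39 ± 0.30 in male mutants, -0.25 ± 0.080 in female controls and 0.21 ± 0.28 in female mutants. No mutant overlapped a control, but FM4, at -0.12, came close to FC3, the highest control, at -0.15.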
